A study of Mus musculus with 4 samples.

Results

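The clustered protocadherin genes of the mouse were described through 754 CpGs on chromosome 18, of 1045368 CpGs that were covered by at least 10 reads in each of 4 reduced representation bisulfite sequencing (RRBS) libraries. They are all such CpGs between 37.09 and 38.01 Mb of mm9, a stretch given for this work as holding the alpha, beta and gamma subclusters of these genes. The alpha subcluster (37.09 to 37.36 Mb) held 206 of them, the beta subcluster (37.40 to 37.67 Mb) 110 and the gamma subcluster (37.80 to 38.01 Mb) 358, and 80 lay between subclusters. No methylation value was used to choose them, and the stretch held 1551 CpGs listed in any library, the rest of which had too few reads in at least 1 library. An annotation of mm9 was not used here, so whether a position lies in a promoter, an exon or an intron is not stated, and positions are those of the deposited tables.

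The 4 libraries came from secondary, inducible mouse embryonic fibroblasts (MEFs), cells that carry doxycycline-inducible reprogramming factors, from a hybrid of the 129/SvJ and C57/B6 strains. RRBS cuts DNA with MspI and sequences short fragments, so it samples CpG-rich sequence. Control cells were left uninduced, and the cells of the other libraries were held in doxycycline for 96 hours. The induced cells were grouped by an average of 0, 1 or more than 3 divisions (for the last, its description counts 3 itself as included), and the libraries are called control, 0-division, 1-division and >3-division. The submitters name 10% serum for growth, 15% serum with doxycycline and a starvation medium with 0.5% serum, without tying the last to a library. Each group had 1 library, so every test below compares 2 libraries, not the conditions.

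Clustered protocadherins are cell adhesion proteins by which neurons tell their own branches from those of other cells. In the alpha and gamma subclusters each variable exon has its own promoter and is spliced to constant exons shared by its subcluster, whereas beta genes have no shared constant exons. A neuron uses a small, varying subset of the variable promoters, and methylation of a variable promoter is known to go with its silence. Genes of the C type are the exception, since neurons use them more uniformly. RefSeq on GRCm38.p6, used for names and gene order alone, lists 14 alpha genes from Pcdha1 to Pcdhac2, 22 beta genes from Pcdhb1 to Pcdhb22 and 22 gamma genes from Pcdhga1 to Pcdhgc5. The 2 alpha and 3 gamma genes of the C type come last in their subclusters in this order, toward higher coordinates.

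Read totals were between 84606824 (control) and 94775128 (>3-division). The median depth of the protocadherin CpGs was 70 (control), 71 (0-division), 68 (1-division) and 55.5 reads (>3-division). Depth moved with the methylation level in the >3-division library. CpGs were classed for this by their mean level in the 0-division and 1-division libraries. Among protocadherin CpGs under 20% methylated the >3-division library had 1.55 times the control reads, at 20 to 80% 0.947 times and over 80% 0.691 times. The same ratios over all CpGs were 1.62, 0.896 and 0.719, and the part of this shift in the results below was not tested.

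The protocadherin stretch had a higher mean methylation level than all tested CpGs, of which a larger share was CpG-dense. Its mean CpG level, the methylated share of reads with equal weight per CpG, was 55.5% (control), 54.8% (0-division), 55.1% (1-division) and 51.6% (>3-division). Over all 1045368 CpGs the means were 42.4%, 42.7%, 42.5% and 38.8%. The subclusters stood in the same order in each of the 4 libraries, with beta above alpha and alpha above gamma. Beta CpGs averaged 71.3%, 71.6%, 71.3% and 66.5% in that order of libraries. Alpha CpGs averaged 55.1%, 54.5%, 54.3% and 49.8%. Gamma CpGs averaged 44.8%, 44.3%, 44.8% and 42.9%. The CpGs between subclusters were the most methylated, at 82.3%, 79.3%, 81.2% and 73.9%.

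CpG-dense sites had higher mean levels in alpha and gamma than over the genome, whereas CpG-poor sites of the stretch were lower. Density was counted as the CpGs listed within 100 bp on either side, and at least 12 was called CpG-dense, which 122 of the 754 CpGs were against 411237 of all 1045368. CpG-dense sites averaged 7.26% over all 411237 such CpGs of the control library, against 31.8% in alpha (53 CpGs) and 20.2% in gamma (69 CpGs), while beta had no CpG-dense site. In the >3-division library the dense sites averaged 6.46% over all CpGs, 27.0% in alpha and 20.4% in gamma. The dense sites of alpha were a mixture of low and high levels, with a median of 2.56% in control. CpG-poor sites, with under 5 CpGs, averaged 68.2% in the stretch (188 CpGs) against 73.4% over all in control, with 76.4% in beta, 68.7% in alpha and 59.0% in gamma. At intermediate density, 5 to 11 CpGs, the control means were 58.4% in the stretch and 56.9% over all, with 67.9% in beta, 60.5% in alpha and 48.1% in gamma.

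Within alpha and within gamma the level changed along the chromosome. Alpha was divided at its widest gap between tested CpGs, 27874 bp. The 131 CpGs on the lower-coordinate side had a mean of 69.8% (control) and 64.3% (>3-division), and the 75 CpGs on the higher-coordinate side a mean of 29.4% and 24.5%. Gamma showed the same order about its widest gap of 25059 bp: 265 CpGs averaged 55.8% (control) and 53.0% (>3-division), and the 93 CpGs on the higher-coordinate side averaged 13.6% and 14.2%. Beta had no such step, with 71.6% over 70 CpGs and 70.7% over 40 CpGs in control. The less methylated sides of alpha and gamma are those toward which the C-type genes lie in the RefSeq order, but no CpG was assigned to a gene. The point of division was set by spacing and not by level, and the difference between the sides was not tested.

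**Figure D1:**
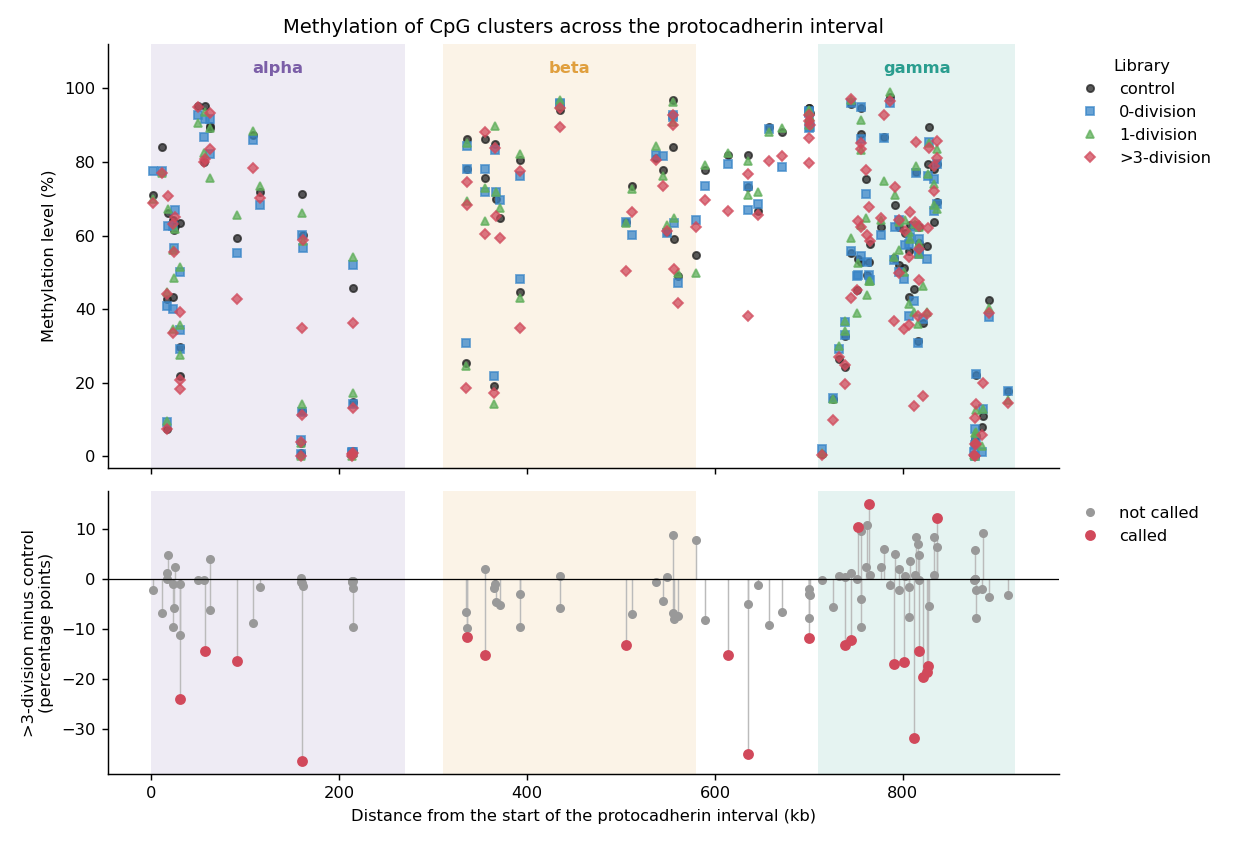
Upper panel: methylation level (%) of the 118 CpG clusters of the protocadherin stretch in each of the 4 libraries against distance from the start of the stretch (kb), with alpha, beta and gamma shaded. Lower panel: the >3-division minus control difference of each cluster (percentage points), with the 22 called clusters in red, of which 19 lie below 0 and the 3 above 0 are in gamma.

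For more reads per feature, tested CpGs spaced by no more than 100 bp were grouped as CpG clusters, with a minimum of 3 CpGs and their reads summed. The stretch held 118 of 99566 CpG clusters, with 30 in alpha, 23 in beta, 53 in gamma and 12 between subclusters. Partial methylation was common among them. In control, 69 of the 118 (58.5%) lay between 20 and 80%, against 23.2% of all clusters. The count was 37 of 53 in gamma (69.8%), 16 of 30 in alpha (53.3%), 13 of 23 in beta (56.5%) and 3 of 12 between subclusters (25%). With limits of 30 and 70% in place of 20 and 80% the control shares were 54.7% of gamma, 33.3% of alpha and 30.4% of beta, against 11.7% of all clusters. The shares also differed within density classes. Among clusters of intermediate density 60.2% of 88 protocadherin clusters were partly methylated against 22.6% of 53921. Among CpG-dense clusters the count was 4 of 10 against 4.83% of 20321.

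Partly methylated clusters mostly stayed so in all libraries, over the genome as well. Of the 69 protocadherin clusters between 20 and 80% in control, 58 were so in each of the 4 libraries, as were 17126 of 23149 over all clusters. The 58 are 49.2% of the 118, against 17.2% of all clusters, shares that also carry how many were partly methylated in control. In gamma lay 30 of the 58. The cluster at chr18:37821741-37821871, with 9 CpGs 1 of the 2 largest CpG-dense clusters of gamma, was methylated at 26.4% (control), 29.1% (0-division), 30.1% (1-division) and 26.9% (>3-division). Its 95% Wilson intervals, which cover counting error only, were 23.3 to 29.8% (control) and 24.2 to 29.8% (>3-division). In gamma the share of partly methylated clusters was 58.5% (31 of 53) in the >3-division library, 13 clusters lay under 20% there against 10 in control, and 9 lay over 80% against 6. Over all clusters the partly methylated share moved the other way, to 29.5%. Across the 118 clusters, the control levels had Pearson correlations of 0.99 (0-division), 0.98 (1-division) and 0.95 (>3-division) with the other libraries, given as a description of positions that share libraries.

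**Figure D2:**
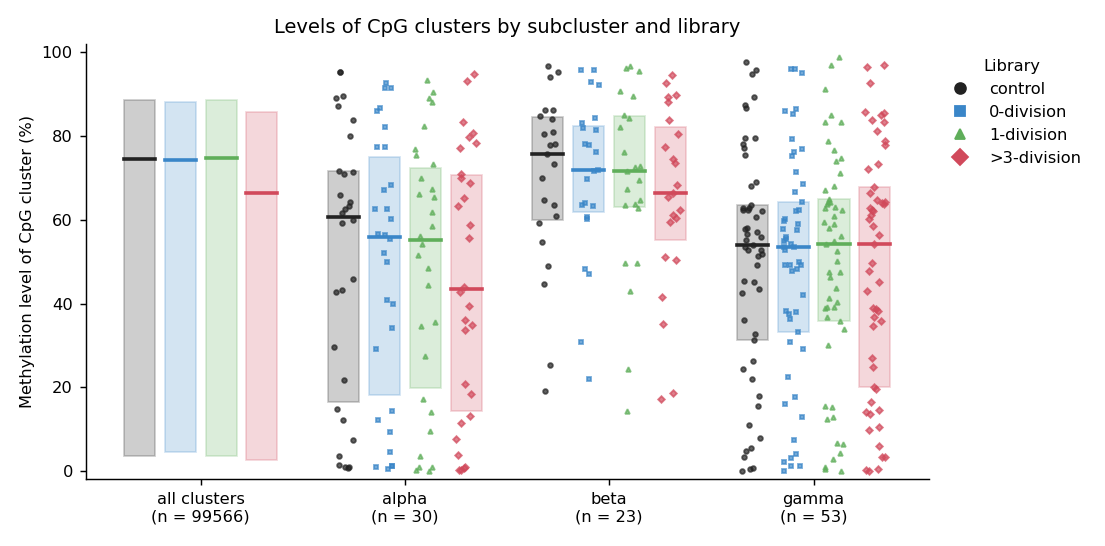
Methylation level (%) of each CpG cluster (points) by subcluster and library, with the median (line) and the interquartile range (box), beside the same for all 99566 clusters. The gamma medians are 54.0% (control) and 54.2% (>3-division), whereas the alpha medians are 60.8% and 43.4% and those of all clusters 74.6% and 66.4%. The gap between 2 medians is not the change of a typical cluster, since alpha levels are widely spread. Per CpG, the median >3-division minus control difference was -3.25 points in alpha and -0.17 in gamma, and the mean in alpha was -5.27.

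The 9 clusters at or under 5% in all 4 libraries lay in 4 short stretches, 2 in alpha and 2 in gamma, formed by chaining tested CpGs at most 300 bp apart. The first alpha stretch ran from 37249575 to 37250189 with 17 tested CpGs. Its cluster at chr18:37249575-37249605 was methylated at 2 of 228 reads (control), 2 of 332 (0-division), 0 of 269 (1-division) and 1 of 410 (>3-division), where 0 of 269 allows up to 1.12%, the limit that 3 reads set. The level then rose along the stretch in control, to 3.68% at 37249737-37249778, 12.3% at 37249883-37249910 and 71.4% at 37250030-37250051, a distance of under 500 bp. The first 3 of these clusters differed by at most 1.88 points between control and any other library. The last cluster had the largest loss in alpha and is described with the losses.

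The second alpha stretch ran from 37303457 to 37304655 and held 40 tested CpGs, among them the 2 largest CpG-dense clusters of alpha. The cluster at chr18:37303457-37303632, of 11 CpGs, was methylated at 0.746% (control), 0.991% (0-division), 0.162% (1-division) and 0.223% (>3-division). Its neighbour at chr18:37303737-37303798, of 9 CpGs, was at 1.03%, 1.24%, 1.08% and 0.628%. Both were the same in all libraries to within 1 point. At its far end the cluster at chr18:37304405-37304655, of 10 CpGs, was partly methylated, at 45.8%, 52.0%, 54.1% and 36.1%. This last cluster was 9.65 points lower in the >3-division than in the control library, just under the 10 points asked of a call, and 15.8 points lower than in the 0-division library.

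In gamma the unmethylated stretches stood toward either end. The first was a single cluster of 22 CpGs at chr18:37803588-37803862, the largest CpG-dense cluster of the subcluster, at 0.614% (control), 2.11% (0-division), 0.863% (1-division) and 0.387% (>3-division). The second, from 37965932 to 37967911, held 52 tested CpGs in 6 clusters, 3 of them at or under 5% in all libraries. Its 23-CpG cluster at chr18:37965932-37966420 was at 0.534%, 1.09%, 0.416% and 0.313%. The least methylated cluster of gamma, chr18:37966587-37966649, had 0 methylated reads of 101, 137, 93 and 111, which allows up to 2.97%, 2.19%, 3.23% and 2.70%. The last cluster of this stretch, chr18:37967878-37967911, was at 22.1% (control), 22.5% (0-division), 12.5% (1-division) and 14.2% (>3-division). None of these clusters differed by the 10 points asked of a call in any comparison.

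**Figure D3:**
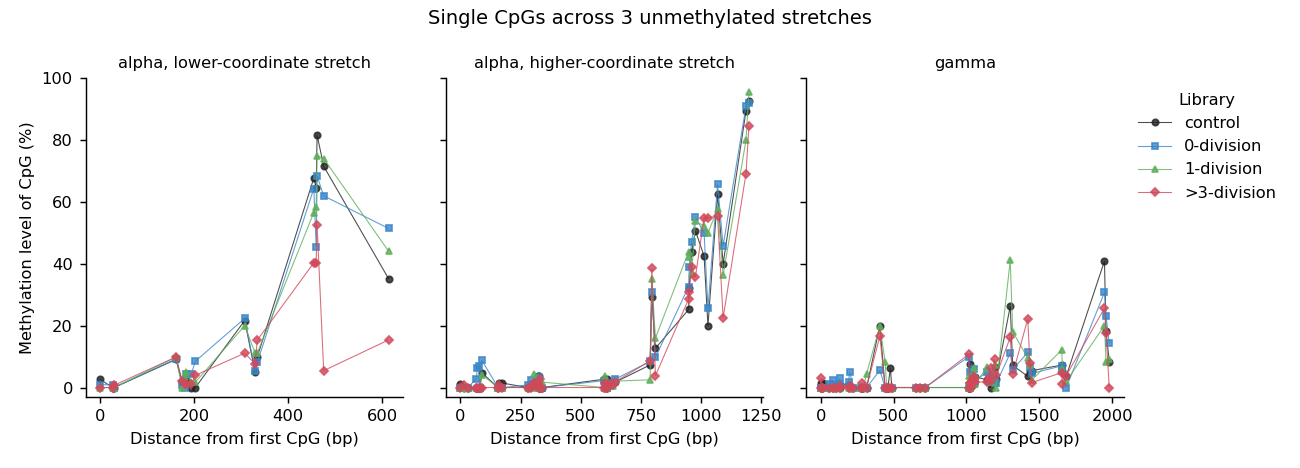
Methylation level (%) of single tested CpGs against distance from the first CpG (bp) in the 3 unmethylated stretches that hold more than 1 cluster, with 1 line per library. Clusters at or under 5% in all 4 libraries are 2 of 4 in the first alpha stretch, 3 of 5 in the second and 3 of 6 in gamma. Levels rise toward the higher-coordinate end of each stretch, less so in gamma, where the last cluster is at 22.1% in control. At the end of the first alpha stretch the >3-division library falls to 5.45% at a CpG that is at 71.6% in control.

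The most methylated cluster of gamma stayed within 3 points across the libraries, and the clusters with the highest control level in alpha and beta were lowest in the >3-division library. The highest of gamma, chr18:37875959-37876099 with 7 CpGs, was at 97.6% (control), 96.0% (0-division), 98.9% (1-division) and 96.4% (>3-division). The highest of beta, chr18:37645705-37645721, was at 96.7%, 92.8%, 96.2% and 89.9%, and its >3-division minus control difference of -6.85 points had an adjusted p of 0.0636 by Fisher's exact test. The highest of alpha, chr18:37146888-37146982, was at 95.3%, 91.5%, 93.4% and 80.9% and lost 14.4 points in the >3-division library (adjusted p = 0.000252, two-sided Fisher's exact test). Its depth there was 94 reads against 422 in control. These clusters were chosen for their control level, which in part fixes lower levels in the other libraries, and the p-values do not allow for that choice. The next highest of alpha, chr18:37139983-37140110, was nearly level with it in control and did not fall in this way, at 95.2%, 92.7%, 90.5% and 94.9%. The lowest beta cluster, chr18:37454445-37454524, was at 19.1%, 21.9%, 14.3% and 17.2%, so beta had no cluster at or under 5%.

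Induction without division was compared with control first. No division cohort is given for control, so doxycycline and the lack of division cannot be told apart in this comparison. The mean level of the 0-division minus the control library was -0.60 points in alpha, 0.30 in beta and -0.55 in gamma, against 0.24 over all CpGs. Pooling reads instead of weighting CpGs equally gave -5.10 points in alpha, 2.94 in beta and, with the sign turned, 0.67 in gamma, against 0.27 over all CpGs. Pooled levels weight each CpG by its depth. Under 20% methylated and over 80%, the 0-division library had 1.42 and 0.971 times the control reads in alpha, and 0.768 and 1.13 times in beta. The part of this in the pooled differences was not tested. Two-sided Fisher's exact tests were adjusted by Benjamini-Hochberg over all CpGs or all clusters of the genome. Calls asked for an adjusted p under 0.05 with 20 points or more at a CpG and 10 points or more at a cluster. By this test no protocadherin CpG was called, with 0.0108% called over all CpGs. Of the 118 clusters 1 was higher and 1 lower, where 0.395% and 0.376% of all clusters were called, 0.77% in all. The higher was in gamma, chr18:37828851-37828864, at 24.3% (control), 36.4% (0-division), 34.0% (1-division) and 24.8% (>3-division). After induction without division it was 12.1 points above control (adjusted p = 0.0268, Fisher's exact test). The lower was the alpha cluster chr18:37250030-37250051, at 71.4% and 60.1% (adjusted p = 0.0166, Fisher's exact test). Thinned to equal depth the differences were as wide or nearly so (11.6 and -14.6 points) but neither was called. The calls were also lost once reads were scaled down for overdispersion between libraries (11.7 and -11.3 points) and with a cluster gap of 200 bp (5.17 and -2.42 points).

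The 1-division library differed from control by -0.82 points in alpha, 0.02 in beta and -0.06 in gamma, against 0.10 over all CpGs. With pooled reads the differences were -3.28 points in alpha, 1.12 in beta and -0.36 in gamma, against -1.44 over all, and gamma turned to 0.75 without the ends of runs of tested CpGs. In alpha the 1-division library had 1.21 times the control reads under 20% methylated and 0.943 times over 80%. No CpG was called (0.00373% over all CpGs). The cluster calls were 2 losses, both in alpha, where 0.132% of all clusters were called lower, 0.215% higher and 0.347% in all. The larger was chr18:37152289-37152418, of 8 CpGs, at 89.6% (control), 82.1% (0-division), 75.5% (1-division) and 83.4% (>3-division), a difference from control of -14.1 points (adjusted p = 2.62e-05, Fisher's exact test). The other, chr18:37114439-37114469, was at 61.5%, 56.5%, 48.4% and 55.6% and was named because it completes the pair. In neither was the >3-division library the lowest. Both calls were lost on thinning, where the first cluster still differed by -15.5 points. With overdispersion it differed by -14.0 points and with a gap of 200 bp by -6.59 points, and it was called in neither.

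The >3-division library was lower than control in all 3 subclusters, and with equal weight per CpG least so in gamma. The mean difference was -5.27 points in alpha, -4.72 in beta, -1.92 in gamma and -8.42 between subclusters, against -3.62 over all CpGs. Against the 0-division library it was -4.67 in alpha, -5.03 in beta and -1.37 in gamma, against -3.87. The gamma values were small: with at least 20 reads per CpG they were -0.87 (against control) and -0.26 (against 0-division), and without the ends of runs of tested CpGs -0.23 and, with the sign turned, 0.13. The order depended on the weighting. Pooled reads gave -14.9 points in alpha, -8.49 in beta and -8.44 in gamma for >3-division minus control, against -17.1 over all CpGs. By this weighting gamma was level with beta, and all 3 differences were smaller than that over all CpGs. Pooled levels weight each CpG by its depth in that library, and depth moved with level in the >3-division library, so a pooled difference is not a mean fall per CpG. For >3-division minus 0-division pooled reads gave -9.84 in alpha, -11.4 in beta and -9.12 in gamma, against -17.4 over all. With equal weight, alpha and beta had fallen more than all CpGs in both comparisons, but these means mix density classes. CpG-dense sites, which beta lacked, differed from control by -0.81 points over all CpGs. At CpG-poor sites the differences from control were -8.95 in alpha and -5.96 in beta, against -7.29 over all. At intermediate density they were -3.70 and -3.93, against -3.56.

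Because the size of the difference went with the starting level, CpGs were also classed by their mean in the 0- and 1-division libraries, which this comparison does not use. At 20 to 80%, the >3-division minus control difference was -3.07 points over 204 gamma CpGs, -6.85 over 92 alpha CpGs and -7.33 over 57 beta CpGs, against -9.16 over all such CpGs. Over 80%, the mean difference was -7.09 points in alpha (65 CpGs), a larger fall than the -4.99 of all such CpGs, while it was -2.04 in beta (47 CpGs) and -2.65 in gamma (56 CpGs). The medians over 80% were -5.94 in alpha, -1.03 in beta and -0.04 in gamma, against -3.20. Under 20% the mean differences were 0.11 in alpha (49 CpGs), -0.98 in beta (6 CpGs, with a median of 0.85) and 0.89 in gamma (98 CpGs), against -0.50. The class of 20 to 80% was also taken without the first and last CpG of each run of tested CpGs and without runs under 3. Its 99 remaining gamma CpGs differed by -0.88 points, those of alpha by -4.24 and those of beta by -4.75, against -5.87 over all. Among clusters at 20 to 80% by the same mean, the median difference was 0.54 points in gamma, where 21 of 35 were higher in the >3-division library. The mean in gamma had the opposite sign, -2.02 points. The median was -5.87 in alpha, where 14 of 17 were lower, -6.56 in beta, where 12 of 15 were lower, and -6.33 over all 23117 clusters of the class, with means of -7.36, -5.61 and -7.68 points.

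Called CpGs in the >3-division library against control were 26 lower and 4 higher among the 754, where 3.05% and 0.0865% of all CpGs were called, 3.13% in all. The 26 are 3.45% of the protocadherin CpGs and so near the genome's share. All 4 higher CpGs were in gamma. Of the clusters, 19 were lower (16.1%) and 3 higher (2.54%), where 11% and 0.577% of all clusters were called, 11.6% in all. The lower clusters were 4 of 30 in alpha, 3 of 23 in beta, 9 of 53 in gamma and 3 of 12 between subclusters, and the 3 higher ones were all in gamma. Against the 0-division library 31 CpGs were lower and 5 higher, where 3.22% and 0.0888% of all CpGs were called, 3.31% in all. Of the clusters 17 were lower and 4 higher in that comparison, where 11.2% and 0.614% of all clusters were called, 11.8% in all. Both comparisons share the >3-division library.

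The largest loss of alpha was at the edge of its first unmethylated stretch. The cluster chr18:37250030-37250051, of 4 CpGs, was at 71.4% (control, 267 of 374 reads), 60.1% (0-division), 66.1% (1-division) and 35.0% (>3-division, 79 of 226 reads). It lost 36.4 points (adjusted p = 3.92e-16, Fisher's exact test). The last of its CpGs was at 71.6%, 62.0%, 74.1% and 5.45%, while the other 3 pooled were at 71.3% (control) and 44.4% (>3-division), so the loss was not that of 1 CpG.

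In beta the largest loss against control was at chr18:37445348-37445417, of 6 CpGs, at 75.6% (control), 71.7% (0-division), 63.9% (1-division) and 60.4% (>3-division), a difference of -15.2 points (adjusted p = 0.0229, Fisher's exact test). It rested on its last CpG, since the other 5 together were at 74.2% (control) and 68.9% (>3-division). The largest beta loss against the 0-division library was at chr18:37595708-37595826, at 63.6% (control), 63.6% (0-division), 63.5% (1-division) and 50.5% (>3-division), a difference of -13.2 points (adjusted p = 0.00865, Fisher's exact test). There the 0- and 1-division libraries differed from control by at most 0.13 points and the >3-division library alone was low. Both beta calls were lost once reads were scaled for overdispersion, with differences of -14.6 (adjusted p = 0.267, Fisher's exact test) and -13.3 points (adjusted p = 0.134, Fisher's exact test). Without run ends the first differed by -6.93 points and was not called. Neither difference passed the test against the library-wide odds ratio described below.

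In gamma losses and gains lay among each other. The largest loss was at chr18:37901974-37901988, of 3 CpGs, at 45.5% (control), 42.1% (0-division), 39.3% (1-division) and 13.6% (>3-division), a difference of -31.8 points (adjusted p = 0.00409, Fisher's exact test). It rested on 66 and 44 reads, and the Wilson intervals were 34.0 to 57.4% and 6.40 to 26.7%. With overdispersion this call was lost, at -31.1 points (adjusted p = 0.157, Fisher's exact test). The largest gain was at chr18:37854547-37854555, also of 3 CpGs, at 52.9% (control), 49.2% (0-division), 47.6% (1-division) and 67.8% (>3-division), a difference of 14.9 points (adjusted p = 0.0075, Fisher's exact test). Its 3 CpGs were higher by 13.0, 12.3 and 19.5 points. The call of this gain against control was lost after thinning (13.5 points) with a cluster gap of 200 bp (6.64 points) and with overdispersion (14.6 points, adjusted p = 0.184, Fisher's exact test). Its call against the 0-division library was kept with overdispersion, at 18.5 points (adjusted p = 0.0205, Fisher's exact test).

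The called gain with the smallest adjusted p was at chr18:37926428-37926456, of 6 CpGs, named after its values were seen. It was at 69.0% (control, 443 of 642 reads), 68.5% (0-division), 67.1% (1-division) and 81.1% (>3-division, 727 of 896 reads), a gain of 12.1 points (adjusted p = 1.85e-06, Fisher's exact test). Each of its 6 CpGs was higher in the >3-division library than in all 3 others. Its neighbour at chr18:37926579-37926613 was at 79.4%, 79.4%, 83.4% and 85.8%, highest in the >3-division library as well.

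Near the unmethylated end of gamma, the cluster at chr18:37975070-37975295, of 13 CpGs and also named after its values were seen, was at 10.9% (control), 12.9% (0-division), 12.8% (1-division) and 20.04% (>3-division). The gain of 9.16 points had an adjusted p of 2.21e-08 by Fisher's exact test but was under the 10 points of a call. It was uneven along the cluster: the CpG at 37975073 was at 7.25%, 8.96%, 11.4% and 38.7%, and the CpG at 37975093 at 16.4%, 24.7%, 16.9% and 45.8%. In contrast the CpG at 37975163 was at 8.26%, 9.66%, 6.99% and 2.75%.

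The genome as a whole was lower in the >3-division library, so each cluster was also tested against that shift. The counts of this test by subcluster were not planned. The common (Mantel-Haenszel) odds ratio over all clusters was 0.715 for >3-division against control and 0.684 for >3-division against 0-division, and an exact conditional test asked whether a cluster's odds ratio differed from it, with at least 10 points between the observed and the implied level. In gamma 15 of 53 clusters (28.3%) stood higher than the library-wide odds ratio implied and 0 lower, where 2.83% and 4.11% of all clusters were called. Against the 0-division library these counts were 21 and 0 of 53, where 4.13% and 3.75% were called. In alpha 2 of 30 were higher and 2 lower than implied against control, and in beta 2 of 23 were higher and 0 lower. Of the 15 gamma clusters, 3 were also called as gains by Fisher's exact test. At the other end, chr18:37907108-37907133, with the weakest adjusted p of the 15 (0.0442, exact conditional test), was at 58.0% (control), 59.0% (0-division), 58.1% (1-division) and 62.7% (>3-division).

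The gamma count depended on the settings. It was 7 of 53 once reads were scaled down by the overdispersion seen in 1-division against control, where 0.88% of all clusters were called, and 7 of the 26 clusters left without run ends, where 2.19% were. With at least 20 points asked it was 1, where 0.44% were. Among clusters at 20 to 80%, where a difference of 10 points can show, 12 of 35 in gamma (34.3%) were called higher against 8.60% of 23117, and 0 lower against 10.7%. The odds ratio itself gives more weight to clusters with more reads. For >3-division against 0-division it was 0.707 without the highest coverage and 0.733 over clusters at 20 to 80%, in place of 0.684.

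**Figure D4:**
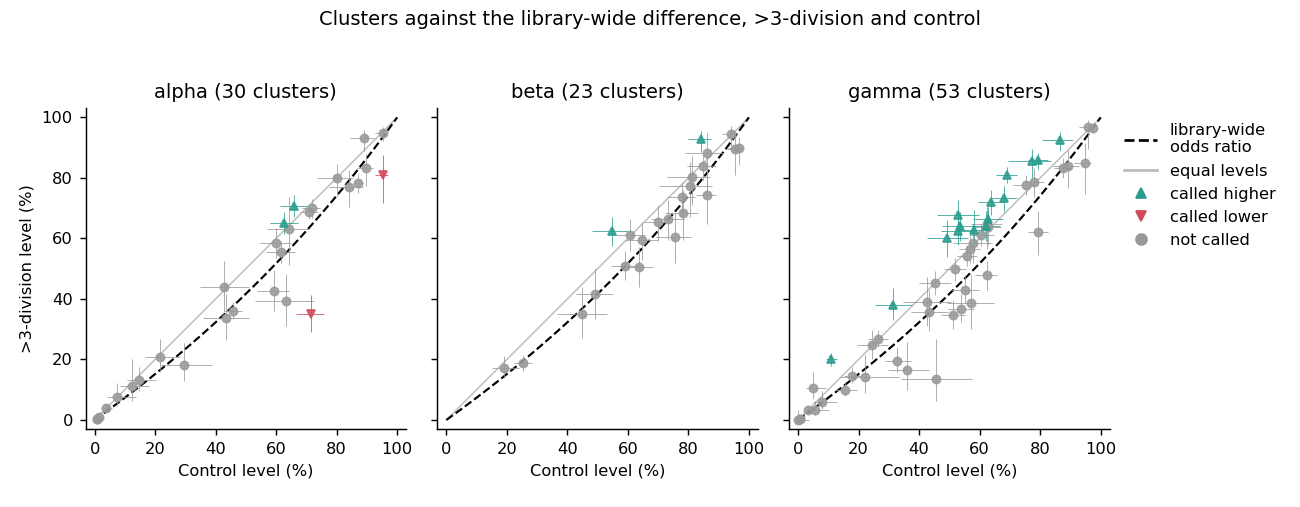
Level of each CpG cluster in the >3-division library (%) against its control level (%), by subcluster, with 95% Wilson intervals as bars, equal levels as a grey line and the level implied by the library-wide odds ratio of 0.715 as a dashed line. In gamma 15 of 53 clusters are called above the dashed line (green) and none below, and in alpha 2 are called above and 2 below (red).

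Single CpGs called lower stood beside neighbours that moved less, as the choice of the called CpGs for their fall in part fixes. Of the 26, 24 had a tested CpG within 100 bp, and at 14 of these the nearest one moved by under 10 points and at 5 it fell by 20 points or more. The median difference was -39.6 points at the called CpGs and -7.40 at their nearest neighbours. The gamma CpG at 37916437 went from 89.2% to 16.7%, while the CpG 22 bp away went from 73.5% to 67.6%. Between subclusters, the CpG at 37724836 went from 75.9% to 6.35%, and the CpG 18 bp away was at 71.6% and 72.1%. Among the 5 with a falling neighbour, the gamma CpG at 37901988 went from 54.5% to 0%, and the CpG 12 bp away fell by 43.3 points to 6.67%.

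Place within a run of tested CpGs went with these calls. Of the 26 CpGs, 15 were the first or last of a run of at least 3, places held by 236 of the 754, and 6 were inner, where 397 were. The other 5 lay in runs under 3, as 121 of the 754 did. Over all CpGs 4.53% of first, 4.46% of last, 1.15% of inner CpGs and 6.46% of those in runs under 3 were called lower. Their mean differences between the >3-division and control libraries were -4.46, -4.44, -1.58 and -7.89 points. Without the first and last CpGs and runs under 3, 9 of 397 protocadherin CpGs were called in place of 30 of 754, where 0.98% of all CpGs were, and 5 of 51 clusters in place of 22 of 118, where 6.23% of all clusters were. Of the 19 lower clusters, 14 still differed by at least 10 points without the CpG that fell most and 5 did not, such as chr18:37916364-37916437, where -17.4 points became -1.76. Why run ends differed was not tested.

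**Figure D5:**
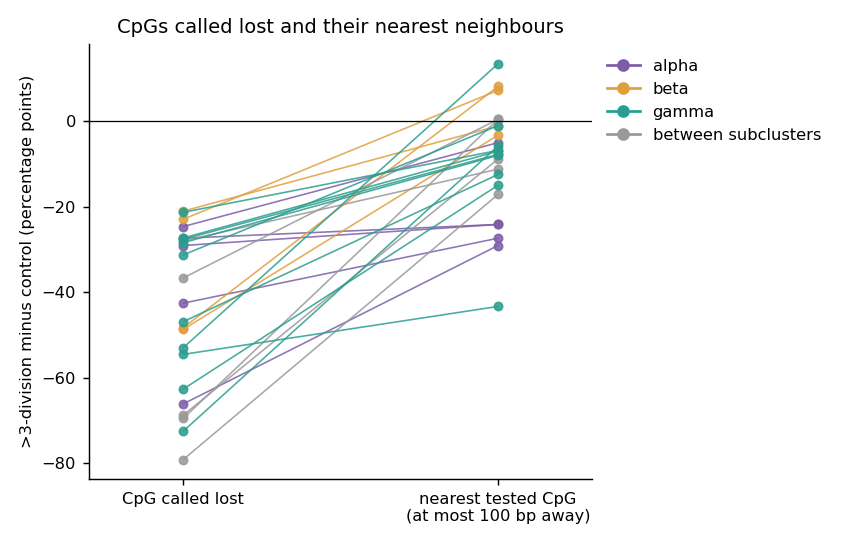
Difference between the >3-division and control libraries (percentage points) at the 24 CpGs called lower that have a tested CpG within 100 bp, joined by a line to the difference at that neighbour, coloured by subcluster. The called CpGs have a median of -39.6 points and the neighbours a median of -7.40.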

How the data were processed

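Per the labels' protocols, bisulfite-treated, MspI-digested DNA was selected at 40 to 220 bp. The authors deposited, per library, CpG positions with methylated and unmethylated read counts; the build, per the submitters' processing notes, was mm9. For the aligner, the methylation caller, the duplicate treatment and whether positions count from 0 or 1, the answer is not given in the sources used here. The order of the 2 deposited counts was read from the values: the first is near 0 in CpG-dense sequence.

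Levels were computed as methylated over all reads at CpGs with at least 10 reads in all 4 libraries. CpGs at most 100 bp apart formed clusters of at least 3. Fisher's exact tests and the exact conditional tests were run in Python 3.11.15 with numba 0.67.0 and scipy 1.17.1, adjusted by Benjamini-Hochberg over 1045368 CpGs or 99566 clusters, and were tested on simulated data. With 1 library per group no spread between replicates exists. CpGs on a read are not independent and reads carry no molecular identifiers, so p-values are too small. Wilson intervals (95%) and limits for 0 methylated reads cover counting error only. Overdispersion, taken from 1-division against control, was 1.36 for CpGs and 1.94 for clusters.

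Clusters named per subcluster were the 2 largest CpG-dense ones, the lowest and highest in control, and the largest called gain and loss of each comparison; others are marked. The members and lists were chosen with earlier results of these data known. Alternatives were other coverage minimums, cluster gaps, weights, thinning, minimum differences and overdispersion. Leaving out run ends, and the test by subcluster against the library-wide odds ratio with its alternatives, were added after the data were seen. The division at the widest gap, the classes by level, the place in a run and the neighbours were not planned either. A planned match of promoters to CpGs by their spacing was not run.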

Additional observations from a re-analysis of the deposited data

How the results depend on the processing

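No paired analysis was possible because each group had 1 library, and for the same reason no library could be left out. Pooled reads moved the mean differences from control in alpha to -5.10 (0-division), -3.28 (1-division) and -14.95 points (>3-division), in beta to 2.94 (0-division) and -8.49 (>3-division), and in gamma to 0.67 (0-division, from -0.55) and -8.44 (>3-division), against -17.1 over all CpGs for the last. Against the 0-division library they gave -9.84, -11.43 and -9.12 for alpha, beta and gamma, against -17.4 over all. By pooled reads the >3-division differences of alpha and beta were smaller than those of all CpGs. By equal weight they were larger, though beta had no CpG-dense site to compare. Pooled levels also carry depth, which moved with level in alpha in the 0- and 1-division libraries too. A coverage minimum of 20 reads gave 1.91 for 0-division minus control in beta, and for the >3-division library in gamma -0.87 against control and -0.26 against 0-division. Without run ends, the >3-division library differed from control by -3.68 (alpha), -2.57 (beta) and -0.23 (gamma), from the 0-division library by -2.33 and -3.20 in alpha and beta, and by 0.13 in gamma, a reversed sign, and the 1-division library from control by 0.75 in gamma.

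Called clusters in 0-division or 1-division minus control fell from 2 each to 0 with a cluster gap of 200 bp, a minimum of 20 points, overdispersion or thinning, and to 1 without run ends. For >3-division minus control they went from 22 to 4 of 118 with 20 points (3.92% of all clusters), 10 with overdispersion (5.50%) and 5 of 51 without run ends (6.23%), and against 0-division from 21 to 4 (3.89%), 10 (6.20%) and 5 of 51 (6.51%). Called CpGs were 1 instead of 0 for 0-division minus control with a minimum of 10 points. For >3-division minus control they fell from 30 to 18 (overdispersion, 1.82% of all CpGs), 18 (thinning, 1.73%) and 9 of 397 (no run ends, 0.98%), and for >3-division minus 0-division from 36 to 21 (thinning, 1.80%) and 9 of 397 (no run ends, 1.04%). Gamma clusters higher than the library-wide odds ratio went from 15 to 1 with 20 points (0.44% of all clusters), 7 with overdispersion (0.88%) and 7 of 26 without run ends (2.19%), and against 0-division from 21 to 4 (0.63%), 10 (1.29%) and 11 of 26 (4.47%). Those lower went from 0 to 1 with a gap of 200 bp, with 20 reads and with an odds ratio from clusters at 20 to 80%, to 2 without the highest coverage, and to 1 with 20 reads against 0-division. With limits of 30 and 70%, partly methylated clusters were 33.3% of alpha, 30.4% of beta and 54.7% of gamma in control, 39.1% of beta both for 0-division and for 1-division, and 36.7% of alpha for >3-division. Of the differences at the named clusters, 65 values under other settings stayed on the same side of the call and 21 lost it, with 0 reversed, and the control level of 1 cluster moved to 88.3% with a gap of 200 bp. Where no other value or the setting's own construction (fewer CpGs or reads) shows it, the cause was not tested.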
